A study of Mus with 51 samples.

Results

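Activator protein 1 (AP-1) is the name for dimers of basic leucine zipper (bZIP) transcription factors, and the data below describe 10 genes that encode them: Fos, Fosb, Fosl1, Fosl2, Jun, Junb, Jund, Batf, Batf3 and Atf3. They were picked by symbol, with no threshold on a measured value, from the 34923 features of the deposited count table. Earlier results of these data were known when the family was chosen. All 10 were found there, and all 10 were among the 17211 genes that passed the filter on low counts. Fos proteins bind DNA only with a partner, usually a Jun protein, while Jun proteins also pair with each other. Batf and Batf3 lack the activation domains of Fos, pair with Jun proteins and bind beside Irf4 or Irf8, and Atf3 is a stress-induced factor that pairs with Jun proteins or with itself. In T cells, MAP kinase signals from the T cell receptor (TCR) raise AP-1, which acts with NFAT at cytokine genes such as Il2.

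Each library was made from poly-A RNA that came from CD4 T cells sorted out of the lymph nodes of mice labelled 5C.C7 TCR transgenic, with the Rag2tm1Fwa allele on B10.A and the Tcra5CC7 and Tcrb5CC7 transgenes, which all groups share. The 6 phenotypes are cells without peptide (NP), cells with the self-peptide GP, cells with the agonist peptide MCC sorted as CD69-high or CD69-low (MCC CD69-hi and MCC CD69-lo), and cells with both peptides sorted in the same way (MCC+GP CD69-hi and MCC+GP CD69-lo). The CD69 receptor reaches the surface soon after TCR signalling, and each phenotype was collected at 1, 6 and 24 h. NP, GP and MCC CD69-lo at 6 h have 2 libraries each and the other 15 groups have 3, so the 18 groups hold 51 libraries. The labels give neither the animals' age nor whether replicates are separate animals, so the p-values cover no more than the spread of these samples, and that spread may be technical.

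The libraries held a median of 5436653 counts (29030 to 10278776), and the shallowest were the 3 of MCC+GP CD69-lo at 24 h, with 29030 to 301455. The T cell genes Cd3e, Cd4 and Trac were present in every library, with medians of 221, 390 and 2470 CPM (counts per 1000000), while Cd8a had a median of 1.07 CPM. RNA of other cells was also present and is described beside the results it moved with. In the first NP libraries of 6 h and of 24 h, Fos and Jun stood above the other NP libraries of that time, and many results that rest on these libraries are given with and without them. In bulk RNA, fewer cells that express a gene and less of its RNA per cell cannot be told apart.

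The genes lie at these places in GRCm38.p6, the RefSeq release of the mm10 build that the counts used; each interval is the whole gene, exons and introns together. The Fos genes are Fos at chr12:85473890-85477274, Fosb at chr7:19302696-19310118, Fosl1 at chr19:5447698-5455938 and Fosl2 at chr5:32136472-32157840. The Jun genes are Jun at chr4:95049036-95052222, Junb at chr8:84976909-84978748 and Jund at chr8:70697739-70700616. Batf is at chr12:85686720-85709087, Batf3 at chr1:191098414-191108943 and Atf3 at chr1:191170296-191183333. The gap between Fos and Batf is 209.4 kb and that between Batf3 and Atf3 is 61.4 kb. No sequence of these genes was used here.

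**Figure D1:**
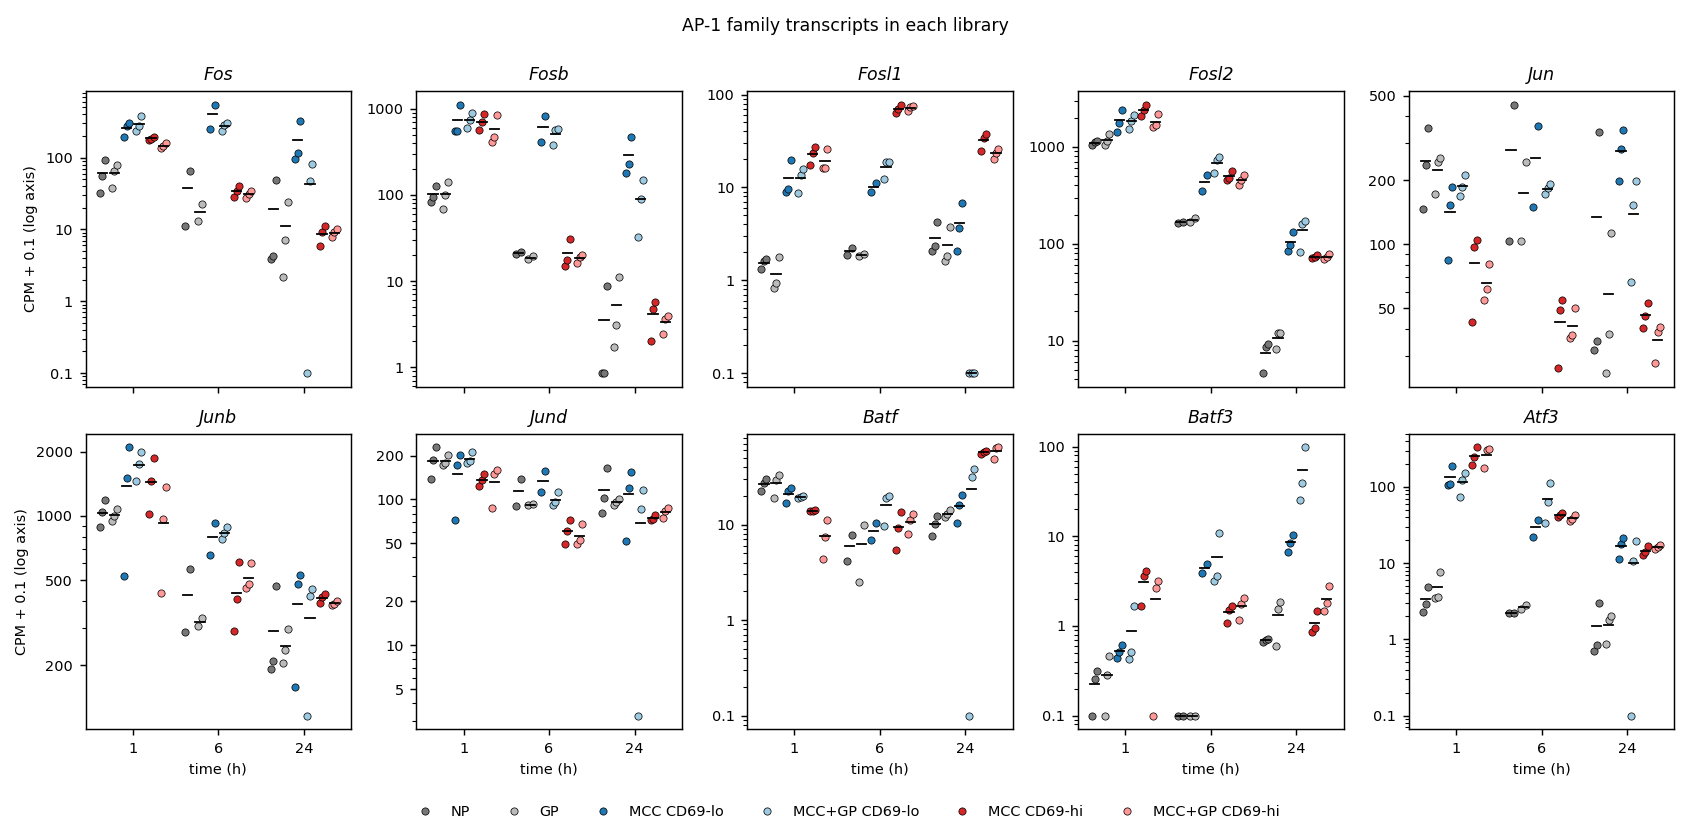
Level of each AP-1 gene in every library (CPM + 0.1, log axis) against time, by phenotype, with a bar at each group's mean. Fosl2 is lower at each later time in every phenotype, Fos and Fosb are high in both CD69-lo fractions at 6 h and in MCC CD69-lo at 24 h, Fosl1 is highest in the CD69-hi fractions at 6 h, and Batf is highest there at 24 h.

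The first question is which AP-1 genes differed after the agonist peptide MCC in the CD69-high fraction. A gene is called where the adjusted p of edgeR's quasi-likelihood test, with Benjamini-Hochberg adjustment over all 17211 genes, was under 0.05; fold changes are log2 values with their SE. At 1 h, 7 of 10 AP-1 genes were called in MCC CD69-hi against NP, 6 higher and 1 lower, where 29.4% of all genes were called, 12.4% higher and 17% lower. Of all the calls at 1 h 42.2% were higher, and 54.6% with another scaling (RLE size factors), which shifted all genes by 0.14. At 6 h, 6 of 10 were called, 4 higher and 2 lower, against 46.7% of all genes, 23.2% higher and 23.6% lower. At 24 h, 5 of 10 were called, 4 higher and 1 lower, against 57.8% of all genes, 29.2% higher and 28.7% lower. With the summed level of 20 B cell genes as a covariate, 4 of 10 were called at 1 h. The share of all genes called in that fit is not given, so this count has no background beside it. The share of AP-1 genes called at 24 h was below that of all genes. The median log2 fold change of the 10 genes was 1.36 at 1 h, 0.34 at 6 h and 0.62 at 24 h, beside -0.05, 0.00 and -0.14 for all genes.

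The CD69-low fraction was given the same peptide and was sorted as CD69-low when collected. In MCC CD69-lo against NP, 5 of 10 AP-1 genes were called at 1 h, all higher, where 3.15% of all genes were called, 2.72% higher and 0.436% lower. At 6 h, 6 of 10 were called, all higher, against 2.12% of all genes, 2.12% higher and 0% lower. At 24 h, 5 of 10 were called, all higher, against 18.5% of all genes, 9.83% higher and 8.65% lower. The share of the family called in the CD69-low fraction exceeded that of all genes at each time. At 1 h the count fell to 3 without MCC CD69-lo replicate 1 or NP replicate 3. Their medians were 1.16, 1.85 and 2.15, beside -0.01, 0.02 and 0.00 for all genes. These comparisons share the NP libraries with those of the CD69-high fraction.

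The CD69-high and CD69-low fractions were then compared directly. In MCC CD69-hi against MCC CD69-lo, 3 of 10 AP-1 genes were called at 1 h, all higher, against 12.5% of all genes, 3.46% higher and 9.06% lower. Of all calls at 1 h 27.6% were higher, and 48.4% with RLE size factors. All of these 3 calls were lost without MCC CD69-hi replicate 3 or without MCC CD69-lo replicate 2, and 1 was left without MCC CD69-lo replicate 3. At 6 h, 6 of 10 were called, 1 higher and 5 lower, against 42.4% of all genes, 19.9% higher and 22.5% lower. At 24 h, 7 of 10 were called, 2 higher and 5 lower, against 61.7% of all genes, 29.1% higher and 32.6% lower. At 24 h the share of AP-1 genes called was thus near that of all genes. At 6 h it was above, but the count fell to 3 without MCC CD69-lo replicate 1.

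**Figure D2:**
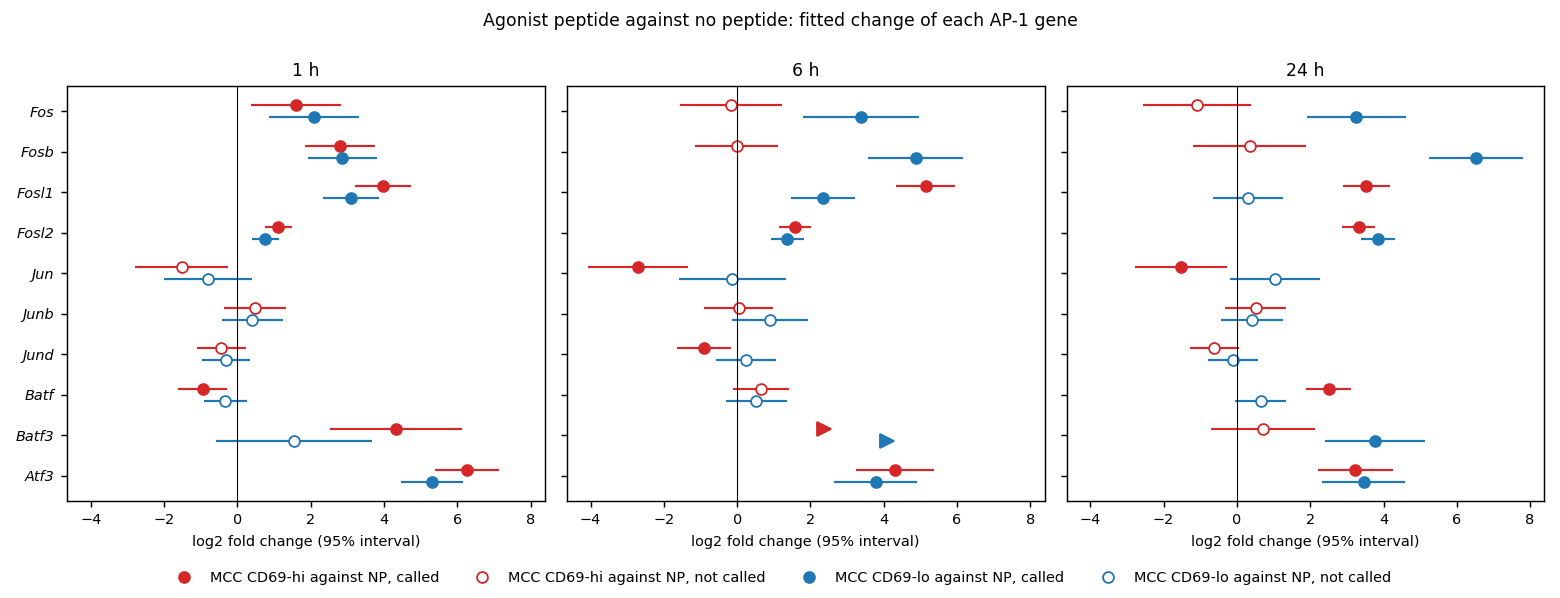
Fitted log2 fold change with its 95% interval for each AP-1 gene against NP at 1, 6 and 24 h, for MCC CD69-hi (red) and MCC CD69-lo (blue); filled points were called and open points were not, and triangles mark lower bounds for Batf3, which had no count in NP at 6 h. The red and blue points lie close together for Fos and Fosb at 1 h and far apart at 6 and 24 h.

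Transcripts of other cells moved with these groups and are given first. The summed level of 20 B cell genes was 571 to 803 CPM in the NP libraries of 1 h, 1430 to 4830 in MCC CD69-lo and 3520 to 5560 in MCC CD69-hi, where all 20 were called higher than in NP. At 6 h the sums were 472 to 763 in NP, 980 to 1510 in MCC CD69-lo and 896 to 1760 in MCC CD69-hi. At 24 h they were 669 to 952, 895 to 1900 and 226 to 381, and in MCC+GP CD69-lo 2860 to 3910. B cell RNA was thus highest in CD69-hi at 1 h and lowest there at 24 h. The MHC class II list, of 10 genes, followed the same order at 24 h: 962 to 1370 in MCC CD69-lo, 70.6 to 191 in MCC CD69-hi and 4570 to 4790 in MCC+GP CD69-lo. Myeloid and dendritic genes, a list of 25 without Batf3 that includes genes T cells can express, summed at 6 h to 620 to 760 CPM in NP, 1680 to 1980 in MCC CD69-lo and 752 to 1510 in MCC CD69-hi, and at 24 h to 483 to 849 in NP, 1960 to 2730 in MCC CD69-lo, 544 to 768 in MCC CD69-hi and 9420 to 12700 in MCC+GP CD69-lo. Fscn1, a gene of mature dendritic cells, had 438 to 703 CPM in MCC CD69-lo at 24 h, 22 to 45.6 in MCC CD69-hi and 2030 to 4000 in MCC+GP CD69-lo. No B cell or MHC class II gene of the lists was at 0 in any of these groups. At 24 h 4 of 25 myeloid genes were at 0 in MCC CD69-lo (Itgam, Xcr1, C1qa and C1qb) and 6 in MCC CD69-hi (Itgam, Xcr1, Clec9a, Cd209a, C1qb and Siglech). A list of 10 NK and CD8 T cell genes summed at 24 h to 44.7 to 67.6 CPM in NP, 156 to 382 in MCC CD69-lo, 29.9 to 41.7 in MCC CD69-hi and 207 to 833 in MCC+GP CD69-lo, and 8 of its genes were called higher in MCC CD69-lo than in NP. The 12 T cell genes summed at 24 h to 6300 to 6960 CPM in NP, 4570 to 4770 in MCC CD69-lo, 5130 to 5370 in MCC CD69-hi and 2080 to 3130 in MCC+GP CD69-lo; 7 of 12 were called lower in MCC CD69-lo than in NP and 9 of 12 in MCC CD69-hi. Each call was refitted with the B cell sum as a covariate, and 79 of 99 held. Where the B cell sums of the compared groups do not overlap, as at 1 h in CD69-hi and NP, covariate and comparison are hard to separate. A call lost there can then reflect lower power. Counts from covariate fits, or with single libraries omitted, come without the share of all genes called in the same fit. The part of the myeloid, MHC class II, NK and CD8 transcripts in the AP-1 values was not tested. All of these sums were higher in CD69-lo at 24 h, where Fos, Fosb and Batf3 were higher too. At 6 h the myeloid sum and Fscn1 were likewise higher in CD69-lo, as were those AP-1 genes. That sum includes Ccr7, at 534 to 543 CPM in MCC CD69-lo, 229 to 303 in MCC CD69-hi and 550 to 560 in NP. Ccl22 overlapped between the fractions (359 to 411 against 233 to 473), and Xcr1 and Clec9a were not higher in CD69-lo. With Batf3 in the list, 3 of 25 tested genes were called lower in MCC CD69-hi at 6 h and 0 higher. Of all genes, 22.5% were called lower there.

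**Figure D3:**
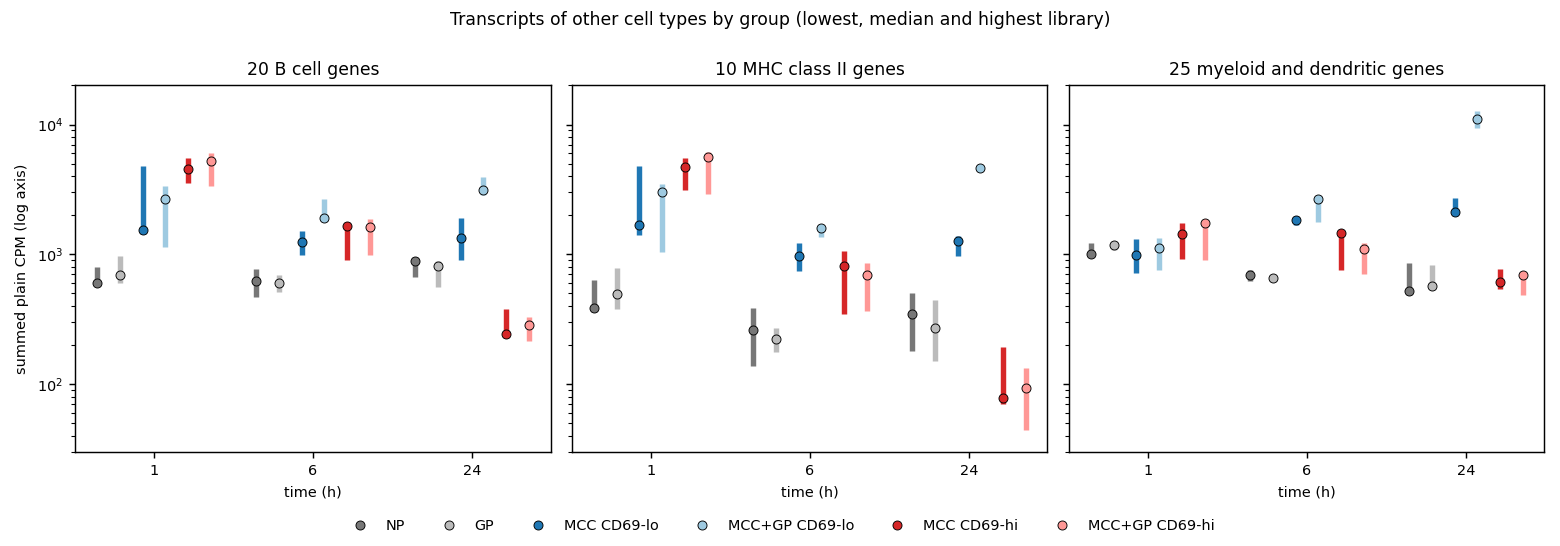
Summed CPM (log axis) of 20 B cell, 10 MHC class II and 25 myeloid and dendritic genes by time and phenotype; points are medians and bars run from the lowest to the highest library. At 24 h every sum is higher in MCC CD69-lo than in MCC CD69-hi, and highest in MCC+GP CD69-lo.

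Fosb encodes a Fos protein of the immediate early response. It was high in both MCC fractions at 1 h and later only in the CD69-low fraction of them. At 1 h its level was 82.99, 127.9 and 94.07 CPM in the NP libraries, 559.5, 863.6 and 700.1 in MCC CD69-hi and 1118, 552.2 and 555 in MCC CD69-lo. All MCC libraries lay above all NP libraries. Fosb rose by 2.79 ± 0.47 (SE) in CD69-hi (edgeR adjusted p = 1.8e-05) and by 2.87 ± 0.47 in CD69-lo (edgeR adjusted p = 0.000128). At 6 h NP stood at 21.57 and 20.4 CPM, CD69-hi at 30.74, 14.87 and 17.38 and CD69-lo at 822.4 and 408.9. The CD69-hi libraries overlapped NP, while both CD69-lo libraries were far above. At 24 h the CD69-lo libraries held 225.8, 181.4 and 472.7 CPM against 5.632, 4.597 and 1.905 in CD69-hi and 8.644, 0.7531 and 0.7594 in NP.

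Against NP, the Fosb change in CD69-lo was 4.87 ± 0.64 at 6 h (edgeR adjusted p = 5.61e-06) and 6.52 ± 0.63 at 24 h (edgeR adjusted p = 3.16e-09). When the fit held the compared groups alone, the 6 h call ended (edgeR adjusted p = 0.069). In CD69-hi the fitted change was -0.01, with an interval of -1.15 to 1.12, at 6 h and 0.34, with an interval of -1.19 to 1.88, at 24 h; without NP 24 h replicate 1 the latter was 2.37 (edgeR adjusted p = 0.0489). CD69-hi was below CD69-lo by -4.89 ± 0.54 at 6 h (edgeR adjusted p = 1.88e-09) and by -6.18 ± 0.60 at 24 h (edgeR adjusted p = 5.58e-11). With the B cell sum as covariate these differences were -4.87 and -6.57. The difference between fractions at 24 h differed from that at 1 h by -6.11 ± 0.73 (edgeR adjusted p = 1.72e-08).

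Fos, the founding member of the family, showed the same division of the fractions with more spread. NP libraries of 1 h stood at 92.22, 55.98 and 32.57 CPM, MCC CD69-hi at 176.4, 195.8 and 182.5 and MCC CD69-lo at 278.6, 196.7 and 300.6. The groups did not overlap, yet both calls against NP were fragile. In CD69-hi the change was 1.60 ± 0.61 (edgeR adjusted p = 0.0454), and it was called under 7 of 14 alternatives, with adjusted p from 0.00485 to 0.862. Without any 1 of the CD69-hi libraries, or without NP replicate 2 or 3, it was lost (adjusted p = 0.0597 to 0.17), and with the B cell sum as covariate it was 0.38 (edgeR adjusted p = 0.862). In CD69-lo the change was 2.09 ± 0.60 (edgeR adjusted p = 0.0477), called under 6 of 14 alternatives, with adjusted p from 0.00351 to 0.558, the highest with the B cell sum as covariate. It was lost without any 1 NP library (adjusted p = 0.0546 to 0.251) and without CD69-lo replicate 1 or 3 (0.105 and 0.174).

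Of these groups, Fos was later high only in CD69-lo. At 6 h the CD69-lo libraries held 547.7 and 250.3 CPM of Fos, against 27.89, 33.92 and 40.35 in CD69-hi and 65.21 and 11.08 in NP. At 24 h they held 117.1, 94.92 and 320, against 10.98, 9.194 and 5.85 in CD69-hi and 49.45, 4.142 and 3.797 in NP. No CD69-lo library overlapped the others, and the first NP library of each time lay above the other NP libraries. Against NP, Fos rose in CD69-lo by 3.38 ± 0.78 at 6 h (edgeR adjusted p = 0.00882) and by 3.26 ± 0.67 at 24 h (edgeR adjusted p = 0.000586). Both calls ended when the fit held the compared groups alone (edgeR adjusted p = 0.478 and 0.236), and the 6 h call also ended without CD69-lo replicate 1 (0.133) or NP replicate 2 (0.406). Between fractions, Fos was lower in CD69-hi by -3.54 ± 0.67 at 6 h (edgeR adjusted p = 3.6e-05) and by -4.36 ± 0.71 at 24 h (edgeR adjusted p = 2.75e-06), calls that held under every alternative run. With the B cell sum as covariate the 24 h difference was -3.26 (edgeR adjusted p = 0.00415).

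Within MCC CD69-hi, both genes fell with time. Fos fell by 2.43 ± 0.63 from 1 to 6 h (edgeR adjusted p = 0.00201), a call that ended with the B cell sum as covariate (0.088). From 6 to 24 h it fell by 1.98 ± 0.69 (edgeR adjusted p = 0.0221), but was lost without CD69-hi 24 h replicate 2 or 3 or 6 h replicate 3 (0.0508 to 0.0874), and with the covariate (0.511). Fosb fell by 5.08 ± 0.53 (edgeR adjusted p = 8.29e-10) and then by 2.36 ± 0.59 (edgeR adjusted p = 0.00161), in calls that held under every alternative run. Over the family, 7 of 10 genes were called in CD69-hi from 1 to 6 h, where 40.6% of all genes were called, and 6 of 10 from 6 to 24 h, against 38.2%.

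Fosl1 encodes Fra-1, a Fos protein without the carboxy-terminal activation domain of Fos. It was higher in the CD69-high fraction than in the CD69-low fraction at 6 and 24 h. NP libraries held 1.23, 1.599 and 1.5 CPM at 1 h, 2.141 and 1.759 at 6 h and 2.211, 4.142 and 1.975 at 24 h. MCC CD69-hi libraries held 17.32, 23.31 and 27.21 CPM at 1 h, 62.89, 77.84 and 69.36 at 6 h and 24.64, 37.39 and 34.15 at 24 h. MCC CD69-lo libraries held 19.51, 9.497 and 8.836 CPM at 1 h, 8.777 and 11.18 at 6 h and 6.613, 1.944 and 3.561 at 24 h. CD69-hi lay above CD69-lo without overlap at 6 and 24 h, while at 1 h the fractions overlapped.

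Against NP, Fosl1 rose in CD69-hi by 3.96 ± 0.38 at 1 h (edgeR adjusted p = 3.41e-12), by 5.14 ± 0.40 at 6 h (edgeR adjusted p = 1.5e-16) and by 3.53 ± 0.32 at 24 h (edgeR adjusted p = 2.64e-14). In CD69-lo it rose by 3.10 ± 0.38 at 1 h (edgeR adjusted p = 3.63e-08) and by 2.34 ± 0.43 at 6 h (edgeR adjusted p = 0.000293). At 24 h the CD69-lo change was 0.31 with an interval of -0.65 to 1.26. CD69-hi exceeded CD69-lo by 2.80 ± 0.33 at 6 h (edgeR adjusted p = 1.49e-10) and by 3.22 ± 0.38 at 24 h (edgeR adjusted p = 1.23e-10), against 0.87 ± 0.30 at 1 h (edgeR adjusted p = 0.045, and 0.0588 to 0.213 without replicate 2 or 3 of either fraction). The rise of this difference from 1 to 24 h was 2.36 ± 0.50 (edgeR adjusted p = 9.02e-05); it was lost with the B cell sum as covariate (1.32, adjusted p = 0.122). Within CD69-hi, Fosl1 rose by 1.63 ± 0.28 from 1 to 6 h (edgeR adjusted p = 2.89e-06) and fell by 1.13 ± 0.25 to 24 h (edgeR adjusted p = 0.00028), so that it alone of the Fos genes was higher at 6 h than at 1 h.

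Fosl2 encodes Fra-2, the other Fos protein that lacks that domain. Its level was lower at each later time in every phenotype, with or without peptide. NP libraries held 1146, 1120 and 1056 CPM at 1 h, 165.5 and 167.8 at 6 h and 9.046, 4.519 and 8.506 at 24 h. GP libraries held 1345, 1141 and 1048, then 168.9 and 185.8, then 8.062, 11.94 and 11.81. The times did not overlap in either phenotype. From 1 to 24 h in NP Fosl2 fell by 7.22 ± 0.25 (edgeR adjusted p = 2.87e-31), the largest change of any member in that comparison. Of the 10 genes, 4 were called there, where 24% of all genes were called. Fosb fell by 4.99 ± 0.61 (edgeR adjusted p = 8.72e-08), Junb by 1.84 ± 0.42 (edgeR adjusted p = 0.00119) and Batf by 1.40 ± 0.31 (edgeR adjusted p = 0.000344). Without NP 24 h replicate 1, 7 of 10 were called, among them Fos (-3.93, edgeR adjusted p = 0.000176), Jun (-2.87, edgeR adjusted p = 0.000344) and Jund (-1.02, edgeR adjusted p = 0.0408). The 24% of all genes belongs to the complete fit, and the share without that library is not given.

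In MCC CD69-hi cells Fosl2 also fell, by 2.27 ± 0.19 from 1 to 6 h (edgeR adjusted p = 5.02e-15) and by 2.76 ± 0.20 from 6 to 24 h (edgeR adjusted p = 1.05e-17), but from a higher level. MCC CD69-hi libraries held 2080, 2385 and 2736 CPM of Fosl2 at 1 h, 481.8, 454.3 and 562.1 at 6 h and 73.5, 75.85 and 71.97 at 24 h. MCC CD69-lo libraries held 2415, 1786 and 1429, then 350.1 and 511.2, then 85.02, 133.5 and 97.18. Both fractions lay above NP without overlap at each time. In CD69-hi the excess of Fosl2 over NP was 1.12 ± 0.18 at 1 h (edgeR adjusted p = 2.73e-06), 1.58 ± 0.22 at 6 h (edgeR adjusted p = 7.66e-09) and 3.32 ± 0.23 at 24 h (edgeR adjusted p = 2.07e-19). In CD69-lo it was 0.76 ± 0.18 (edgeR adjusted p = 0.00725; 0.123 without CD69-lo replicate 1 and 0.0525 without NP replicate 3), 1.37 ± 0.23 (edgeR adjusted p = 4.81e-05) and 3.85 ± 0.23 (edgeR adjusted p = 4.04e-19). The excess in CD69-hi grew from 1 to 24 h by 2.201 ± 0.29 (edgeR adjusted p = 4.83e-09), while the level itself declined. At 24 h CD69-hi was below CD69-lo by -0.53 ± 0.19 (edgeR adjusted p = 0.0154), a call lost without CD69-lo replicate 2 (0.221).

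The Jun genes, whose proteins are the common partners of the other members, moved less. Junb, which often restrains Jun and drives T helper programs, had no call in either fraction against NP; without the first NP libraries of 6 and 24 h it was called in CD69-hi at 24 h (1.03, edgeR adjusted p = 0.0488). NP libraries of 1 h held 1183, 1044 and 883.9 CPM of Junb, MCC CD69-hi 1020, 1458 and 1863 and MCC CD69-lo 2103, 1513 and 522.7. The third CD69-lo library stood apart from the others, and the groups overlapped. At 1 h the interval of the Junb change was -0.35 to 1.31 in CD69-hi and -0.42 to 1.24 in CD69-lo. At 24 h it was -0.33 to 1.35 and -0.43 to 1.27, so changes of about that size in either fraction were not detectable. At 6 h MCC CD69-lo held 659.2 and 925.7 CPM of Junb, above NP (285.1 and 565.2) and CD69-hi (288.8 to 610.8) without overlap. Neither difference was called. With both peptides at 6 h, CD69-lo (781.2 to 887) also lay above CD69-hi (460.2 to 599.4) without a call. With time Junb fell, by 1.73 ± 0.42 in CD69-hi from 1 to 6 h (edgeR adjusted p = 0.00109) as in NP from 1 to 24 h.

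Jun encodes c-Jun, the founding Jun protein. Its level in NP was spread widely: 353, 236.3 and 147 CPM at 1 h, 453.9 and 104 at 6 h and 335.9, 35.21 and 31.9 at 24 h. MCC CD69-hi libraries were lower and closer together, with 96.85, 43.12 and 105.1 at 1 h, 54.54, 26.13 and 48.83 at 6 h and 52.66, 40.45 and 45.99 at 24 h. MCC CD69-lo libraries held 152.8, 186.2 and 84.45, then 360.6 and 149.9, then 279.6, 343.1 and 199.4. Between the fractions Jun did not overlap at 6 or 24 h. CD69-hi was below CD69-lo by -2.57 ± 0.67 at 6 h (edgeR adjusted p = 0.00188; 0.0766 without CD69-lo replicate 1) and by -2.57 ± 0.64 at 24 h (edgeR adjusted p = 0.000811; 0.0762 with the B cell sum as covariate).

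Against NP the Jun result rested on single libraries. In CD69-hi at 6 h it was -2.70 ± 0.67 (edgeR adjusted p = 0.00101), and -1.29 without NP replicate 1 (edgeR adjusted p = 0.196). At 24 h it was -1.53 ± 0.61 (edgeR adjusted p = 0.033), and without NP replicate 1 it turned to 0.47 (edgeR adjusted p = 0.491). That call was also lost without any 1 CD69-hi library (0.053 to 0.0804) and with the B cell sum as covariate (0.265). The 1 h value of -1.52, with an interval of -2.79 to -0.24, was not called (edgeR adjusted p = 0.066), though it was by DESeq2 (adjusted p = 0.0421) and without the first NP libraries of 6 and 24 h (edgeR adjusted p = 0.0109). In CD69-lo the intervals of the Jun change spanned 0 at each time, for example -0.19 to 2.27 at 24 h. Without NP 24 h replicate 1 the 24 h change was 3.03 (edgeR adjusted p = 0.000446).

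Jund, a Jun protein linked with restraint of growth, had group means from 56.4 to 190 CPM, a ratio of 3.37 between the highest and the lowest. NP libraries held 228.7, 186.1 and 138 CPM at 1 h, and MCC CD69-hi 123.6, 136.4 and 149.1. At 6 h NP held 137.8 and 89.53, CD69-hi 60.76, 49.35 and 71.66 and CD69-lo 157.2 and 111.8. At 6 h CD69-hi lay below both other groups. Against NP the difference was -0.91 ± 0.36 (edgeR adjusted p = 0.0382), and it was lost without NP replicate 1 (0.337) or CD69-hi replicate 1 (0.0718) or 2 (0.12), and with the B cell sum as covariate (0.177). Against CD69-lo it was -1.15 ± 0.36 (edgeR adjusted p = 0.00927), lost without CD69-lo replicate 1 (0.133) or CD69-hi replicate 2 (0.0531). At 24 h CD69-hi held 72.23 to 78.61 CPM of Jund, below NP (80.39 to 163.4) without overlap. It overlapped CD69-lo (51.39 to 154.9). Neither 24 h difference was called by edgeR, while DESeq2 called both.

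Batf, which with Irf4 opens chromatin in activated T cells, was the member that rose late. NP libraries held 26.9, 30.19 and 22.07 CPM at 1 h, 7.74 and 4.045 at 6 h and 10.05, 7.531 and 12.3 at 24 h. MCC CD69-hi libraries held 13.78, 13.99 and 13.61, then 9.061, 5.282 and 13.5, then 57.02, 55.01 and 58.91. MCC CD69-lo libraries of 24 h held 16.06, 20.09 and 10.18. At 24 h CD69-hi stood apart from both other groups, and at 1 h it lay below NP. The 24 h rise of Batf over NP was 2.51 ± 0.30 (edgeR adjusted p = 2.02e-10), and over CD69-lo 1.86 ± 0.32 (edgeR adjusted p = 1.52e-06); both held under every alternative run. At 1 h the difference from NP was -0.94 ± 0.33 (edgeR adjusted p = 0.0267), called under 7 of 14 alternatives and lost without any 1 of the 3 CD69-hi libraries or without NP replicate 1 or 2 (0.0833 to 0.146), with RLE size factors (0.0595) and with the B cell sum as covariate (0.174). The change of the difference from 1 to 24 h was 3.45 ± 0.45 (edgeR adjusted p = 4.23e-09), and within CD69-hi Batf rose by 2.62 ± 0.30 from 6 to 24 h (edgeR adjusted p = 2.76e-10).

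Batf3, required for a class of dendritic cells and also made by activated T cells, was the scarcest member. In NP it had 2 counts in all at 1 h, none at 6 h and 3 to 4 per library at 24 h. MCC CD69-hi libraries held 1.575, 3.496 and 4.02 CPM of Batf3 at 1 h, where the 20 counts against 2 in NP gave a ratio of 24.4 with a counting interval of 5.92 to 215. The fit called it higher (edgeR adjusted p = 0.00015), but not with the B cell sum as covariate (0.0805). At 6 h the mean of 1.32 CPM in CD69-hi was at least 5.19-fold higher than NP, and the mean of 4.35 CPM in CD69-lo at least 17-fold higher, with 3 counts over the NP group as the floor (edgeR adjusted p = 0.000495 and 0.000136). Both fractions thus rose over NP at 6 h, with CD69-lo the higher. Floors and counting intervals cover counting error only.

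At 24 h Batf3 was at 10.39, 8.423 and 6.614 CPM in MCC CD69-lo, 0.8448, 0.7662 and 1.361 in MCC CD69-hi and 0.6031, 0.5648 and 0.6076 in NP. CD69-lo rose over NP by 3.76 ± 0.68 (edgeR adjusted p = 4.05e-05), and CD69-hi lay below CD69-lo by -3.04 ± 0.63 (edgeR adjusted p = 4.03e-05). At 6 h the latter difference was -1.70 ± 0.64 (edgeR adjusted p = 0.027), lost without CD69-lo replicate 1 or 2 or CD69-hi replicate 2 (0.0543 to 0.136), whereas at 1 h CD69-hi was the higher by 2.78 ± 0.78 (edgeR adjusted p = 0.011; 0.0966 without CD69-hi replicate 3, 0.0585 without CD69-lo replicate 2 and 0.052 with the B cell sum as covariate). The order of the fractions reversed between 1 and 24 h, by -5.82 ± 1.00 (edgeR adjusted p = 2.68e-06). The highest Batf3 levels in the series, 25.56, 99.41 and 39.12 CPM, rest on 6 to 15 counts in MCC+GP CD69-lo at 24 h, where the myeloid and dendritic sum was also highest at 9420 to 12700 CPM; the part of those transcripts in the Batf3 values was not tested.

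Atf3 showed the largest rise of the family at 1 h in CD69-hi. NP libraries held 4.764, 2.199 and 2.786 CPM at 1 h, MCC CD69-hi 248.4, 192.3 and 334 and MCC CD69-lo 186.2, 110.4 and 106. At 6 h NP held 2.141 and 2.111, CD69-hi 42.11, 45.04 and 40.78 and CD69-lo 22.22 and 36.72. At 24 h NP held 0.6031, 0.7531 and 2.886, CD69-hi 13.8, 12.57 and 16.87 and CD69-lo 17.95, 21.06 and 11.19. Both fractions lay above NP without overlap at each time. In CD69-hi Atf3 rose over NP by 6.27 ± 0.43 (edgeR adjusted p = 5.74e-14), 4.31 ± 0.53 (edgeR adjusted p = 8.98e-09) and 3.23 ± 0.51 (edgeR adjusted p = 9.44e-07), and in CD69-lo by 5.31 ± 0.42 (edgeR adjusted p = 4.81e-11), 3.78 ± 0.56 (edgeR adjusted p = 2.63e-05) and 3.46 ± 0.56 (edgeR adjusted p = 2.07e-05). The excess in CD69-hi shrank by 3.05 ± 0.79 from 1 to 24 h (edgeR adjusted p = 0.00184; 0.203 without NP 24 h replicate 3). CD69-hi exceeded CD69-lo at 1 h by 0.96 ± 0.31 (edgeR adjusted p = 0.035), a call lost without CD69-hi replicate 3 or CD69-lo replicate 2 or 3 (0.136 to 0.152). At 24 h the difference of -0.23 had an interval of -1.07 to 0.60.

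Changes of the MCC response with time were tested as differences of differences. For MCC CD69-hi against NP, 2 of 10 AP-1 genes differed between 6 and 1 h, where 29.9% of all genes did (1 of 10 without MCC CD69-hi 6 h replicate 3), and 6 of 10 between 24 and 1 h, where 45.1% did (3 of 10 with the B cell sum as covariate). Of all calls at 24 against 1 h 56.9% were higher, and 46.1% with RLE size factors. For MCC CD69-hi against MCC CD69-lo, 6 of 10 differed between 24 and 1 h, against 46.5% of all genes. Of those calls over all genes 56.1% were higher, and 42.4% with RLE size factors, which shifted all genes by -0.37. Fos and Fosb shared the direction in which the fractions parted, and Batf and Fosl1 had the other: the values were -3.87 ± 0.91 for Fos (edgeR adjusted p = 0.000677), -6.11 for Fosb, 2.46 ± 0.47 for Batf (edgeR adjusted p = 1.46e-05) and 2.36 for Fosl1. With the B cell sum as covariate the Fos value was -2.31 (edgeR adjusted p = 0.181).

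Levels can be compared between genes only per length, and for that the deposited TPM values were rescaled to sum to 1000000. On that scale Junb made up the largest mean share of the summed level of the 10 genes in each of the 18 groups, from 40.5% in MCC CD69-lo at 24 h to 66.9% in MCC CD69-hi at 24 h. It was the highest member in 48 of 51 libraries. Behind Junb, the family's make-up differed between groups. Fosl2 came next in NP at 1 h with 19.3% (17.1 to 21.6%), yet had 0.535% in NP at 24 h, where Jund had 18.8% (14.5 to 22.1%). In MCC CD69-hi the next share belonged to Fosl2 at 1 h, with 24.1% (22.7 to 25.9%), and to Batf at 24 h, with 11.2% (10.4 to 11.6%). In MCC CD69-lo it belonged to Fos at 6 h, with 22.7% (18.8 to 26.6%). At 24 h there the libraries differed: Fos had 21.1% on average but 10.1 to 40.6%, was highest in 1 library, and the member after the highest was Fos, Jun or Fosb. Batf3 reached 15.7% (5.77 to 34.3%) only in the shallow MCC+GP CD69-lo libraries of 24 h.

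The summed per-length level of the 10 genes was lower at each later time in all 3 of these phenotypes. In NP it was 1860 ± 296 (SD, n = 3) at 1 h, 859 ± 399 (n = 2) at 6 h and 542 ± 326 (n = 3) at 24 h. In MCC CD69-hi it was 3370 ± 642 (n = 3), 796 ± 197 (n = 3) and 643 ± 32.5 (n = 3). In MCC CD69-lo it was 3000 ± 965 (n = 3), 1850 ± 501 (n = 2) and 1240 ± 69 (n = 3). By 24 h the sum in CD69-hi thus lay within the spread of NP over all 3 libraries, and that in CD69-lo was above it. That spread includes the first NP library of 24 h, in which Fos and Jun stood above the other NP libraries. Whether the CD69-hi sum lies within the spread of NP without that library was not tested. The overlap is therefore not read as a return to the NP level. Fosl1, Fosl2, Batf and Atf3 were still called higher in CD69-hi than in NP at 24 h. These sums are a description with no test.

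**Figure D4:**
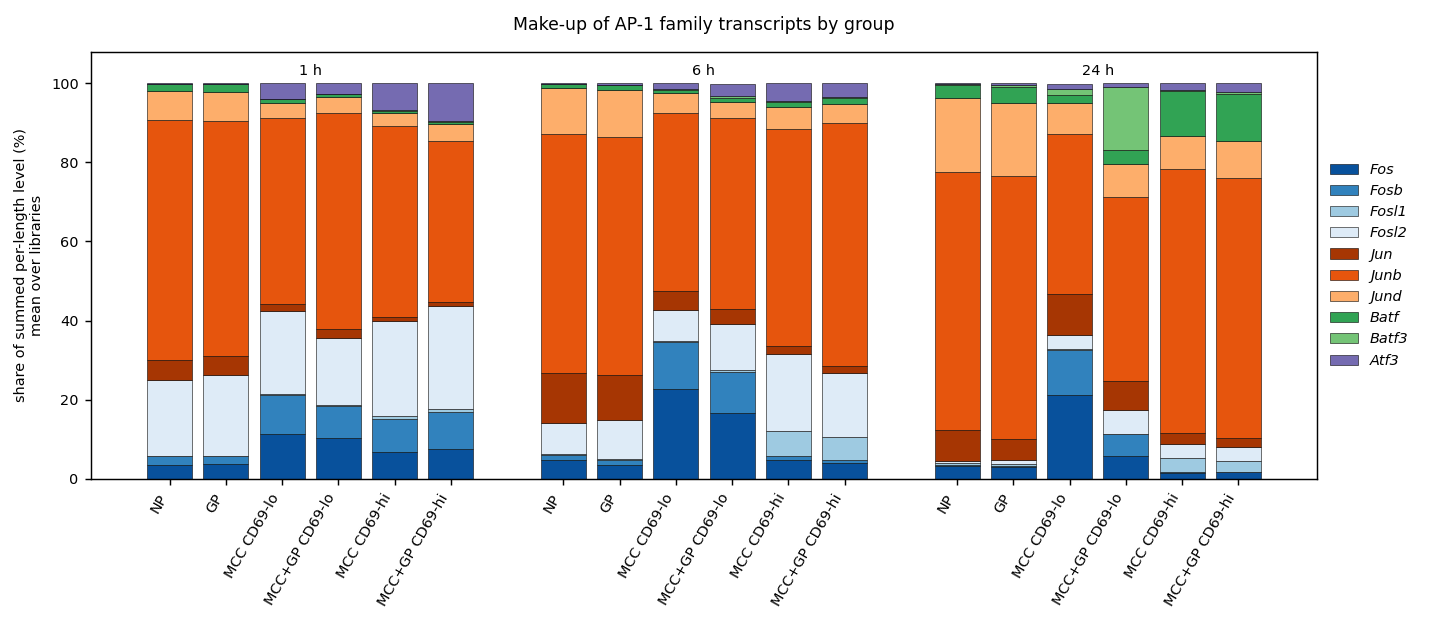
Mean share of each AP-1 gene in the summed per-length level of the 10 genes (%, stacked to 100), by phenotype and time. Junb has the largest share in each of the 18 groups; Fos and Fosb are widest in MCC CD69-lo at 6 and 24 h, and Batf in the CD69-hi fractions at 24 h.

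Over the 18 groups, most neighbours in the order of a gene's levels overlapped. Jun had 0 of 17 neighbouring pairs of groups apart, and Junb, Jund and Batf had 1 each. For Batf that gap separated MCC+GP CD69-hi and MCC CD69-hi at 24 h, with means of 58.6 and 57.0 CPM, from all other groups. Fosl2 had 6 of 17 pairs apart, with means from 7.36 in NP at 24 h to 2400 in MCC CD69-hi at 1 h. Atf3 had 4 apart and was highest in the CD69-hi groups of 1 h, at 263 and 258 CPM; the libraries given MCC alone (192 to 334) lay above both CD69-lo groups of 1 h, while those given both peptides (176 to 310) overlapped MCC CD69-lo (106 to 186). Fosl1, with 4 apart, was highest in the CD69-hi groups of 6 h, at 71.5 and 70.0 CPM. Fosb had 4 pairs apart, and Fos and Batf3 had 2 each.

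The series' title concerns self-peptides, and GP is the self-peptide of its groups. In the comparisons of GP alone with NP, 0 of 10 AP-1 genes were called by edgeR, at 1 h, at 6 h, at 24 h or in the mean over times. Of all genes 0%, 0%, 0.00581% and 0% were called. At an unadjusted p under 0.05 the counts of AP-1 genes were 0, 0, 1 (Fosl2 at 24 h) and 0, and DESeq2 called 0 in each. The shares of all genes at that unadjusted threshold were 0.8%, 0.73%, 1.1% and 1.16%. The intervals of the mean change still allow sizeable shifts. For Fosl2 the mean change was 0.24 with an interval of -0.02 to 0.49, and for Junb -0.23 with an interval of -0.75 to 0.29. Fos and Jun were less certain, at -0.64 (-1.48 to 0.20) and -0.68 (-1.43 to 0.08). Both values include the first NP libraries of 6 and 24 h, in which these genes stood above the other NP libraries. At 6 h Fos ran from 11.08 to 65.21 CPM in NP and from 12.89 to 22.37 in GP. Jun ran from 104 to 453.9 in NP and from 103.8 to 243.4 in GP. The sign of the 2 means is therefore not read as a direction. For Fosb, Fosl1, Jund, Batf and Atf3 the bounds lay between -0.83 and 1.06. Batf3 had no count in NP or GP at 6 h, so no mean over times could be had.

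GP was also added together with MCC. In CD69-hi cells given both peptides, against those given MCC, 0 of 10 AP-1 genes were called by edgeR at 1, 6 or 24 h or in the mean over times, where 0.68%, 0%, 0% and 0.0116% of all genes were called. At an unadjusted p under 0.05 there was 1 gene, Fosl2 at 1 h, and DESeq2 called 0 in each. The shares of all genes at that unadjusted threshold were 16.43%, 0.98%, 0.71% and 7.03%. The share of AP-1 genes at 1 h was thus below that of all genes. Fosl2 libraries of 1 h held 2182, 1693 and 1594 CPM with both peptides against 2080, 2385 and 2736 with MCC alone. The groups overlapped, and the change was -0.40 with an interval of -0.76 to -0.03 (edgeR adjusted p = 0.261). In the mean over times the interval was -0.39 to 0.04 for Fosl2, -0.38 to 0.40 for Atf3, -0.55 to 0.11 for Fosl1 and -0.62 to 0.22 for Batf. It was -0.93 to 0.65 for Fos and -1.04 to 0.50 for Jun. The test of whether GP acted differently with MCC than alone called 0 of 10 by edgeR, against 0% of all genes, and 0 by DESeq2. At an unadjusted p under 0.05 there was 1 gene (Fosl2, -0.41, interval -0.74 to -0.08), where 3.77% of all genes passed.

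**Figure D5:**
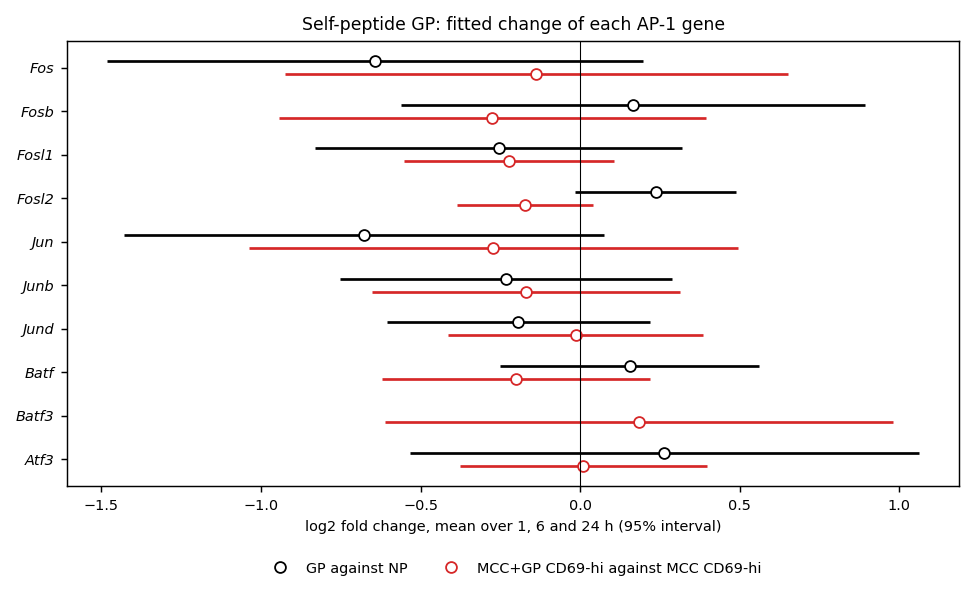
Fitted log2 change of each AP-1 gene with GP, as the mean over 1, 6 and 24 h with its 95% interval: GP against NP (black) and CD69-hi cells with both peptides against those with MCC alone (red). Each interval drawn includes 0; Batf3 has no black interval because NP and GP had no count at 6 h.

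In the CD69-low fraction, MCC+GP against MCC gave 0 of 10 calls by edgeR at 1 h and at 6 h, where 0% and 0% of all genes were called. At an unadjusted p under 0.05 there were 0 and 4 genes (Fosl1, Fosl2, Batf and Atf3 at 6 h), and DESeq2 called 0 and 0. Of all genes, 0.71% and 5.64% had an unadjusted p under 0.05. Atf3 libraries of 6 h held 33.05, 113.1 and 62.43 CPM with both peptides and 22.22 and 36.72 with MCC alone. These overlapped, with a change of 1.21 and an interval of 0.45 to 1.97 (edgeR adjusted p = 0.796). Fosl2 libraries held 534.3, 735.4 and 783.7 against 350.1 and 511.2, without overlap (0.67, interval 0.25 to 1.08, edgeR adjusted p = 0.796). Without MCC+GP CD69-lo replicate 1, 1 gene was called at 6 h. At 24 h 2 of 10 were called, against 19.3% of all genes: Fosb was lower by -2.04 ± 0.65 (edgeR adjusted p = 0.0242) and Batf3 higher by 2.42 ± 0.64 (edgeR adjusted p = 0.00501). These rest on 9 to 34 and 6 to 15 counts per library. Without MCC+GP CD69-lo replicate 1 or 3, or MCC CD69-lo replicate 3, the Fosb call was lost (0.193, 0.0685 and 0.114), and both calls were lost with the B cell sum as covariate (0.0758 and 0.091); that of Batf3 was also lost when the compared groups alone were fitted (0.0868).

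The split of Fos, Fosb and Fosl1 between fractions was also seen at 6 h with both peptides present. In MCC+GP CD69-hi against MCC+GP CD69-lo, 2 of 10 AP-1 genes were called at 1 h, 8 of 10 at 6 h and 6 of 10 at 24 h, where 18.7%, 46.1% and 46.6% of all genes were called. The share of AP-1 genes called was near that of all genes at 1 h and not far above it at 24 h. Only at 6 h was it well above. With the B cell sum as covariate 3 of 10 were called at 24 h. At 6 h Fos libraries held 30.58, 27.16 and 34.71 CPM in CD69-hi and 282.2, 302.6 and 235.1 in CD69-lo, and Fosb libraries 20.04, 18.99 and 15.92 against 585.5, 560.8 and 378. Neither gene overlapped between the fractions. The differences were -3.14 ± 0.64 for Fos (edgeR adjusted p = 9.36e-05) and -4.80 ± 0.53 for Fosb (edgeR adjusted p = 1.47e-09), and Fosl1 was higher by 2.12 ± 0.27 (edgeR adjusted p = 1.66e-09). Jun was lower by -2.14 ± 0.63 (edgeR adjusted p = 0.00526). This comparison shares no sample with that of the fractions given MCC alone.

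Of the other calls with both peptides, those on Fosl2, Jund, Batf3 and Atf3 at 6 h were each lost without at least 1 library, and 5 were left without CD69-hi replicate 2 or without CD69-lo replicate 3. The 1 h calls were Atf3, higher by 1.17 ± 0.32 (edgeR adjusted p = 0.00846; 0.0645 without CD69-lo replicate 1), and Batf, lower by -1.32 ± 0.42 (edgeR adjusted p = 0.0215), which was lost under 6 of 14 alternatives, 4 of them single libraries (0.0664 to 0.163). At 24 h the CD69-lo libraries were the shallow ones. Fosl1 had 0 counts in all 3 of them, and its mean of 23.3 CPM in CD69-hi was at least 5.87-fold higher than their floor of 3 counts over the group. Fosb was lower in CD69-hi by -4.49 ± 0.88 (edgeR adjusted p = 6.72e-05), Fosl2 by -1.07 ± 0.24 (edgeR adjusted p = 0.000152) and Batf3 by -4.52 ± 0.67 (edgeR adjusted p = 9.85e-08; 0.0672 with the B cell sum as covariate). Fos and Jun were lower as well (edgeR adjusted p = 0.0435 and 0.0235), in calls lost without CD69-lo replicate 1 (0.0841 and 0.056) or 3 (0.365 and 0.152), for Fos without any 1 CD69-hi library (0.0509 to 0.058), and for both with the B cell sum as covariate (0.636 and 0.579).

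Genes around AP-1 were counted from lists of kinases, phosphatases, partners and targets. Against NP at 1, 6 and 24 h, 29.4%, 46.7% and 57.8% of all genes were called in MCC CD69-hi. Of all genes, 12.4%, 23.2% and 29.2% were called higher there. In MCC CD69-lo the shares were 3.15%, 2.12% and 18.5%, with 2.72%, 2.12% and 9.83% higher. Every list count below stands beside these shares, and many in CD69-hi at 6 and 24 h are not far from them. Other bZIP genes, 33 tested, were called 9 higher and 5 lower in MCC CD69-hi against NP at 1 h, 18 and 6 at 6 h and 14 and 10 at 24 h. In MCC CD69-lo they were called 0 and 0, 1 and 0 and 7 and 2. The single call at 6 h was Jdp2, which encodes an AP-1 repressor, at 12.74 CPM in CD69-lo against 0.6755 in NP (4.18 ± 0.80, edgeR adjusted p = 0.00044). The list's median change in CD69-hi was 0.02, 1.17 and 0.62. In CD69-hi Maf fell by 2.01 ± 0.30 at 1 h (edgeR adjusted p = 5.09e-07), Atf5 rose by 2.93 ± 0.45 at 6 h (edgeR adjusted p = 1.76e-07), and Bach1, a bZIP repressor, fell by 2.19 ± 0.17 at 24 h (edgeR adjusted p = 3.22e-17) after a rise of 1.13 ± 0.16 at 1 h.

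MAP kinase genes upstream of AP-1, 25 tested, were called 5 higher and 9 lower in CD69-hi at 1 h, 7 and 8 at 6 h and 12 and 8 at 24 h, with medians of -0.26, -0.20 and 0.31. In CD69-lo the counts were 3 and 1, 2 and 0 and 0 and 2. Map2k3, a kinase of the p38 pathway, was among the genes that rose: 306.2 CPM against 34.91 at 1 h and 914.3 against 27.87 at 6 h in CD69-hi, or 3.13 ± 0.30 and 5.04 ± 0.39 (edgeR adjusted p = 2.44e-10 and 6.43e-14). Rasgrp1, which loads Ras downstream of the TCR, fell by 1.95 ± 0.22 at 6 h (edgeR adjusted p = 8.22e-11). Feedback genes of the pathway, 15 tested, were called 6 higher and 2 lower, 11 and 2, and 11 and 2 in CD69-hi, with medians of 0.87, 2.503 and 2.27, and 4 and 0, 6 and 0 and 8 and 2 in CD69-lo. Spry1, an inhibitor of Ras signalling, rose from 1.027 to 606.5 CPM at 6 h in CD69-hi (9.18 ± 0.66, edgeR adjusted p = 3.94e-14), and Dusp10, a phosphatase of JNK and p38, fell by 4.18 ± 0.36 (edgeR adjusted p = 2.01e-12).

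Partner factors, 7 tested, were called 3 higher and 2 lower in CD69-hi at 1 h, 4 and 3 at 6 h and 3 and 3 at 24 h. Their medians were -0.03, 2.28 and -0.18. In CD69-lo they were called 3 and 1, 3 and 0 and 2 and 2. Irf4, the partner of Batf, rose in CD69-hi by 3.93 ± 0.25 at 1 h (edgeR adjusted p = 1.54e-16), 4.73 ± 0.31 at 6 h (edgeR adjusted p = 1.46e-17) and 6.62 ± 0.30 at 24 h (edgeR adjusted p = 6.02e-24). Irf4 was thus high at 1 h, when Batf was not, and both were high in CD69-hi at 24 h. Ets1 fell by 2.08 ± 0.18, 3.14 ± 0.19 and 2.70 ± 0.18 at these times (edgeR adjusted p = 4.53e-14, 6.27e-21 and 8.77e-20).

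AP-1 target genes, 12 of 13 tested, were called 7 higher and 0 lower in CD69-hi at 1 h, 7 and 2 at 6 h and 10 and 1 at 24 h, and 3 and 0, 4 and 0 and 6 and 0 in CD69-lo. Several had no count in NP, and with those at their bound the medians in CD69-hi were 2.45, 2.78 and 4.48. The list holds Cd69, whose protein was the gate, so its change is no finding between fractions. Il2, the T cell growth factor gene, had a mean of 141 CPM in CD69-hi at 6 h and 546 at 24 h, at least 554-fold and at least 3070-fold higher than NP, which had no count. In CD69-lo it had 0.918 and 0.725 CPM, with libraries that overlapped NP (edgeR adjusted p = 0.549 and 0.187). Il2 RNA was thus higher in the fraction in which Fos and Fosb were lower and Fosl1 higher.

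The genes whose group means followed each AP-1 gene most closely are given as Pearson r of log2 CPM over the 18 groups, which share libraries, times and the other cells' RNA; they are a description. Fos was closest to Fosb (0.941), then Birc3 (0.906) and Csf2ra (0.897). Fosb was closest to Fos, then H2-Eb2 (0.927), an MHC class II gene, and Lrrk2 (0.921). Fosl1 was closest to Map2k3 (0.958), Pdcd1 (0.957) and Pou2f2 (0.953), and Fosl2 to Relb (0.969), Nabp1 (0.937) and Sik1 (0.934). Jun was closest to Tor1aip2 (0.966), Junb to Hspa1b (0.964), Jund to Paip2 (0.959) and Batf to Ada (0.93). Batf3 was closest to Cttnbp2nl (0.954), Cst3 (0.941), a gene of the dendritic list, and Dscaml1 (0.924), and Atf3 to Tagap (0.976), Egr2 (0.971) and Slc41a1 (0.964). The closest genes depended on the measure. By Spearman correlation they were Mafg, Ncbp2 and Bid for Fosl1 and Ddx60, Oasl2 and Ngp for Jun. Fosl1, Jun and Jund shared none of their closest genes between the measures, and the other members shared some. Among the 10 genes, Fosl2 and Junb followed at 0.882 and Fosl1 and Jun ran opposite at -0.565. The chromosomal neighbours did not follow each other closely, with 0.196 for Batf3 and Atf3 and -0.093 for Fos and Batf.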

How the data were processed

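Per the submitters' processing notes, the authors used bcl2fastq 2.20, STAR 2.6.1c, HTSeq 0.9.1 and the mm10 build; the strand setting is not given in the sources used here. The deposited table of raw counts per gene was used for every test. The deposited TPM columns sum to 9986 to 9996, not to 1000000; they were proportional to count over length (largest CV 0.93% over 2379 genes) and were rescaled to 1000000 for levels per length. Counts were normalized with TMM, filtered with filterByExpr (17211 of 34923 genes) and fitted with edgeR 4.0.16 (limma 3.58.1, R 4.3.3), robust quasi-likelihood, 1 coefficient per group over all 51 libraries; tests were two-sided F tests with Benjamini-Hochberg adjustment at 0.05. CPM of members are TMM-scaled; sums of marker lists are plain CPM. A group without counts was set at a floor of 3 counts over the group. The fit was tested on simulated data.

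The 10 genes and the lists were chosen with earlier results of these data known. From each list a comparison names genes among up to 4 with the largest called change, at least 5 CPM in a group and no overlap of libraries; likeness names up to 3 genes with the highest r among genes with a group mean of at least 10 CPM. Symbols matched RefSeq's GRCm38.p6 table for 10 of 10 genes. Replicates of a group differed by 4.17 to 21.65 chi-square per degree of freedom, so none was a copy. Alternatives were RLE size factors, no filter, DESeq2 1.42.0, only the compared groups, a replicate block by well round, a B cell covariate, libraries left out singly (these keep the genes and dispersion trend fitted over all libraries), and fits that omit the first NP libraries of 6 and 24 h or the shallow 24 h libraries.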

Additional observations from a re-analysis of the deposited data

Results flagged for a closer look

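These values stand out because the same contrast differed between times by a test of the difference itself (edgeR interaction, adjusted over all genes). For MCC CD69-hi against NP, the log2 change at 6 h minus that at 1 h was -2.81 for Fosb (adjusted p = 0.00235) and 1.59 for Batf (adjusted p = 0.0121; 0.123 without NP 6 h replicate 2, 0.119 when MCC CD69-hi 6 h replicate 3 was omitted). At 24 h minus 1 h it was 2.201 for Fosl2, 3.45 for Batf, -3.05 for Atf3, -3.61 for Batf3, -2.70 for Fos (adjusted p = 0.0191) and -2.45 for Fosb (adjusted p = 0.0269). The Fos and Fosb values rest on NP 24 h replicate 1: without it they were -0.48 (adjusted p = 0.754) and -0.43 (adjusted p = 0.872). Fosb was also lost without MCC CD69-hi 24 h replicate 3 (0.0585), Atf3 without NP 24 h replicate 3 (-1.92, adjusted p = 0.203), and Batf3, which rests on 2 counts in NP at 1 h, with the B cell covariate (0.43). Fos and Fosb were also lost with that covariate (0.802 and 0.0699).

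For MCC CD69-hi against MCC CD69-lo, 24 h minus 1 h, the values were -3.87 for Fos, -6.11 for Fosb, 2.36 for Fosl1, -0.89 for Fosl2 (adjusted p = 0.00476), 2.46 for Batf and -5.82 for Batf3. Those of Fos and Fosl1 were lost with the B cell covariate (adjusted p = 0.181 and 0.122).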

How the results depend on the processing

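Of 99 calls on an AP-1 gene in a comparison, 39 were lost or reversed under any alternative. DESeq2 and the replicate block by well round kept 99 of 99 (the block also called Jun in MCC CD69-hi against NP at 1 h, -1.515 with adjusted p = 0.0207, and in MCC CD69-lo against NP at 24 h, 1.879 with adjusted p = 0.0103, and raised the count for NP at 24 against 1 h from 4 to 6), RLE size factors 97, the fit without the first NP libraries of 6 and 24 h 94, no filter 90, only the compared groups 86 and the B cell covariate 79; without MCC+GP CD69-lo at 24 h, 91 of 91 were kept. With single libraries omitted, 573 of 652 values kept the call. RLE moved the median of all genes by -0.446 to 0.262, and 0 called AP-1 genes changed sign with it. The rounds come from the wells in the titles, which the labels do not tie to a batch: the median correlation of deviations was 0.107 for the same round and time and -0.041 for other rounds. Jun in MCC CD69-hi against NP at 24 h (-1.53) turned to 0.455 without the first NP libraries and to 0.469 without NP 24 h replicate 1. Counts of AP-1 genes called changed as follows, from the value in the report. With the B cell covariate they were 4 for MCC CD69-hi against NP at 1 h, 1 for MCC+GP CD69-lo against MCC CD69-lo at 24 h, 3 for MCC+GP CD69-hi against MCC+GP CD69-lo at 24 h and 3 for the 24 h minus 1 h difference of MCC CD69-hi against NP. With only the compared groups 1 was left for MCC CD69-hi against MCC CD69-lo at 1 h, with DESeq2 4 were called for MCC+GP CD69-lo against MCC CD69-lo at 24 h, with RLE 1 for MCC+GP CD69-hi against MCC+GP CD69-lo at 1 h, and without the first NP libraries 7 for NP at 24 against 1 h. The cause was not tested. With single libraries omitted (lowest to highest), counts ran from 3 to 5 for MCC CD69-lo against NP at 1 h, from 0 to 4 and from 3 to 6 for MCC CD69-hi against MCC CD69-lo at 1 and 6 h, from 0 to 1 and from 1 to 3 for MCC+GP CD69-lo against MCC CD69-lo at 6 and 24 h, from 1 to 2 and from 5 to 8 for MCC+GP CD69-hi against MCC+GP CD69-lo at 1 and 6 h, from 1 to 3 for the 6 h minus 1 h difference of MCC CD69-hi against NP and from 4 to 7 for NP at 24 against 1 h; Jun in MCC CD69-hi against NP at 24 h ran from -1.998 to 0.469. Batf3 and the shallow 24 h libraries rest on few counts.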
